A study of Rattus norvegicus with 8 samples.

Results

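The motile cilia genes of the rat spinal cord were followed through treatment with a histone deacetylase inhibitor (HDACI). They were chosen by name alone: every gene whose symbol in the annotation of the array starts with Dnah, Dnai, Rsph, Tekt or Spag6, and Foxj1, Ccdc39, Ccdc40, Spag16, Hydin, Drc3 and Dynlrb2. The rule found 34 genes, each measured by 1 probe set, of 14506 named genes in all. The rule also asks for Spag17, and no probe set carried that symbol alone, so it was not analysed here.

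Both groups were adult male Wistar rats that had an L5 spinal nerve transection and carried an intrathecal catheter fed by an osmotic pump, which was running before the injury. The HDACI group (4 arrays) received MS-275, which acts on the class I enzymes, at 30 nmol/day, and the vehicle group (4 arrays) received the DMSO and saline solvent. Dorsal lumbar cord of the injured side was taken on day 14, and its RNA was hybridized to Affymetrix Rat Gene 1.0 ST arrays, one array per animal sample. Uninjured cord was not among these arrays, so the comparison is of drug against solvent in injured cord. All values below are log2 signals that the authors normalized by RMA, a method that corrects background, equalises the arrays and gives 1 value per probe set. The medians of the 8 arrays lay between 7.95 and 7.98. The groups were compared with limma, the package the study chose. Adjusted p values (Benjamini-Hochberg) refer to all 14506 genes.

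A motile cilium is a hair-like projection that beats, driven by dynein arms that walk along a ring of microtubule doublets around a central pair. The nexin-dynein regulatory complex (N-DRC) links the doublets, and radial spokes carry signals from the central pair. Both time the arms, and tektins are filaments inside the doublet wall. In the spinal cord such cilia stand on ependymal cells, the epithelium that lines the central canal and moves cerebrospinal fluid. Foxj1 and factors of the Rfx family are the transcription factors best known for switching these genes on. Many of the same proteins build the sperm tail, and a part of the set (Tekt5, Rsph6a, Dnah8 and Tektl1) is known mainly from sperm.

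With HDACI the motile cilia genes stayed close to their vehicle levels. Drc3, a subunit of the N-DRC, was lower on every HDACI array, and Tekt5, a tektin, was lower by a smaller amount. No motile cilia gene was higher at an unadjusted p under 0.05. The log2 difference (HDACI minus vehicle) of the 34 genes ran from -0.30 to 0.16 with a median of -0.03, against a median of -0.01 over all genes. The median of the 34 rested on single arrays: it was -0.066 without HDACI replicate 1, -0.065 without vehicle replicate 2, 0.0020 without HDACI replicate 2 and 0.0015 without vehicle replicate 3. Of the 34 genes, 22 had a lower mean with HDACI and 12 a higher one. That is 64.7% lower, beside 57.9% of all genes. At an unadjusted p under 0.01, the threshold the study used, 1 of the 34 was lower (Drc3) and 0 were higher, where 0.855% of all genes were called lower and 0.607% higher. At an unadjusted p under 0.05, 2 were lower (5.88%) and 0 were higher, where 4.96% of all genes were lower and 2.79% higher. Without HDACI replicate 1, Dnah1 and Hydin joined them and 4 were lower at that threshold. Dnah12 was higher at that threshold without HDACI replicate 3, without vehicle replicate 1 and with the replicate number as a block. Every HDACI array lay below every vehicle array for 2 of the 34 (5.88%), beside 3.6% of all genes, and above every vehicle array for 0, beside 1.42%. After adjustment with limma 0 of the 34 and 0 of 14506 genes (0%) had a p under 0.05, and the lowest adjusted p among the 34 was 0.610. These shares lie near those of all genes.

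**Figure D1:**
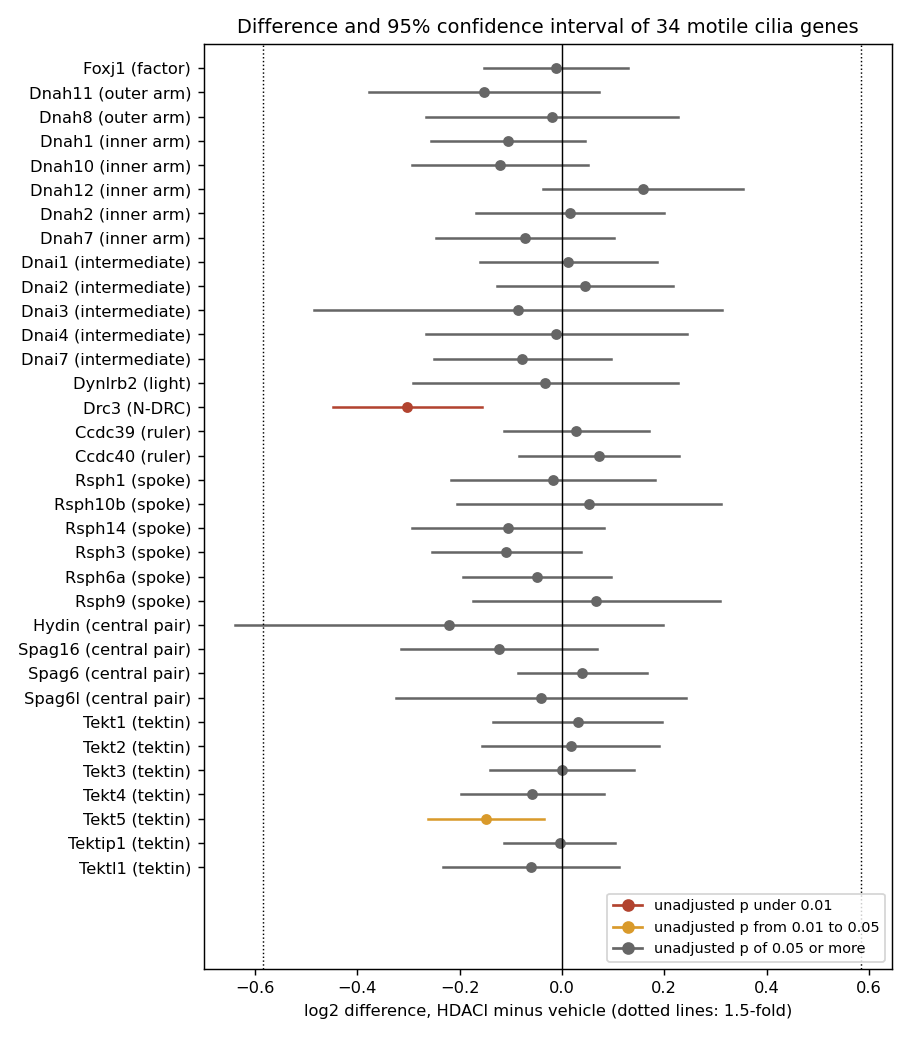
Log2 difference, HDACI minus vehicle (horizontal axis), for each of 34 motile cilia genes (vertical axis, with the role of each in brackets). Points are differences of means of 4 and 4 arrays, lines are 95% confidence intervals from limma, and dotted lines mark 1.5-fold. The intervals of Drc3 and Tekt5 exclude 0, and that of Hydin alone passes the 1.5-fold line.

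The intervals bound how far these genes could have moved. The 95% confidence interval of the difference stayed inside a 1.5-fold change in either direction for 33 of the 34 genes, Hydin being the exception, and inside 1.25-fold for 28. The SD within groups had a median of 0.12 over the 34 genes, from 0.06 to 0.32. In whole tissue, fewer cells of a type and less RNA per cell cannot be told apart. RMA also compresses differences between dim probe sets, and 12 of the 34 genes were dim. As a guide to background, 1105 olfactory receptor genes, which the cord is not known to use, had a median signal of 5.22 and a 95th percentile of 6.93. The mean signal of 22 motile cilia genes was above that percentile and that of 12 was at or below it.

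Drc3 (older name Lrrc48, Entrez 287371, probe set 10734045) encodes a leucine-rich repeat subunit of the N-DRC, the link between doublets that keeps the beat even. Its log2 signal was 8.15, 7.98, 7.97 and 8.002 on the 4 HDACI arrays, against 8.41, 8.42, 8.28 and 8.20 on the 4 vehicle arrays. The groups did not overlap: the highest HDACI array (replicate 1) was just below the lowest vehicle array (replicate 4). The means were 8.03 ± 0.09 with HDACI and 8.33 ± 0.11 with vehicle (SD, n = 4 each). The log2 difference was -0.30 (standard error 0.06, 95% confidence interval -0.45 to -0.16), a change of -18.9%. The unadjusted p from limma was 0.00105 and the adjusted p was 0.610, and the exact two-sided permutation p was 0.0286, the smallest that 4 against 4 arrays can give. Leaving out each array in turn gave differences from -0.35 to -0.27, with unadjusted p values from limma between 4.28e-04 and 0.00424.

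The stretch before the start of Drc3 is shown because it belongs to the one motile cilia gene called at the threshold of the study. It was read from RefSeq on the GRCr8 assembly and runs 5′ to 3′ along the gene, ending at the base before the annotated start. It holds no GTTNCCA on either strand, a word described with the genes that have it.
Drc3 (chr10:45658485-45658734, plus strand): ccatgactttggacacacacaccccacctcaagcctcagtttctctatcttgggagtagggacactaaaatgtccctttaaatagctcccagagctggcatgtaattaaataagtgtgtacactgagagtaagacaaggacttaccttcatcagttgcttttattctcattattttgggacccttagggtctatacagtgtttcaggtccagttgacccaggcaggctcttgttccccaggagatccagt

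The other subunits of the N-DRC were measured by 10 genes. Of these, 9 had a lower mean with HDACI and 1 a higher one, where 57.9% of all genes had a lower mean. The median difference of the 10 was -0.04. Their differences ran from -0.13 to 0.04, all smaller than that of Drc3. Efcab2 (also Drc8), a calcium-binding subunit, was lowest, at 7.70, 7.63, 7.82 and 7.82 on the HDACI arrays, against 7.86, 7.85, 7.97 and 7.81 on the vehicle arrays. Those groups overlapped by 1 vehicle array, and the difference of -0.13 had an unadjusted p of 0.0470 from limma. No other subunit reached an unadjusted p of 0.05. Of all genes, 4.96% were lower at that threshold. Ccdc39 and Ccdc40, the pair of coiled-coil proteins that sets the spacing at which the N-DRC and the inner arms attach, were not lower. Ccdc40 was at 7.75, 7.59, 7.73 and 7.67 on the HDACI arrays, against 7.74, 7.51, 7.71 and 7.48 on the vehicle arrays. The groups overlapped and the difference was 0.07 (95% confidence interval -0.08 to 0.23). That of Ccdc39 was 0.03.

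Tektins were measured by 5 genes (Tekt1 to Tekt5), to which the rule added Tektip1, which encodes a partner of the tektin bundle, and the tektin-like gene Tektl1. Of the 7 genes, 4 had lower and 3 higher means with HDACI. Tekt5 (Entrez 363538, probe set 10731524) was at 8.01, 7.95, 7.99 and 7.82 on the HDACI arrays, against 8.09, 8.06, 8.14 and 8.07 on the vehicle arrays. No HDACI array reached the lowest vehicle array. The difference was -0.15 (standard error 0.05, 95% confidence interval -0.26 to -0.03), a change of -9.74%, with an unadjusted p of 0.0160 and an adjusted p of 0.610 from limma and an exact permutation p of 0.0286. The unadjusted p stayed between 0.0111 and 0.0472 in every alternative that kept the gene. The other 6 genes differed by -0.06 to 0.03, and their intervals all held 0. Tekt2, a tektin of ciliary and flagellar doublets, differed by 0.02, and Tekt1 by 0.03.

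**Figure D2:**
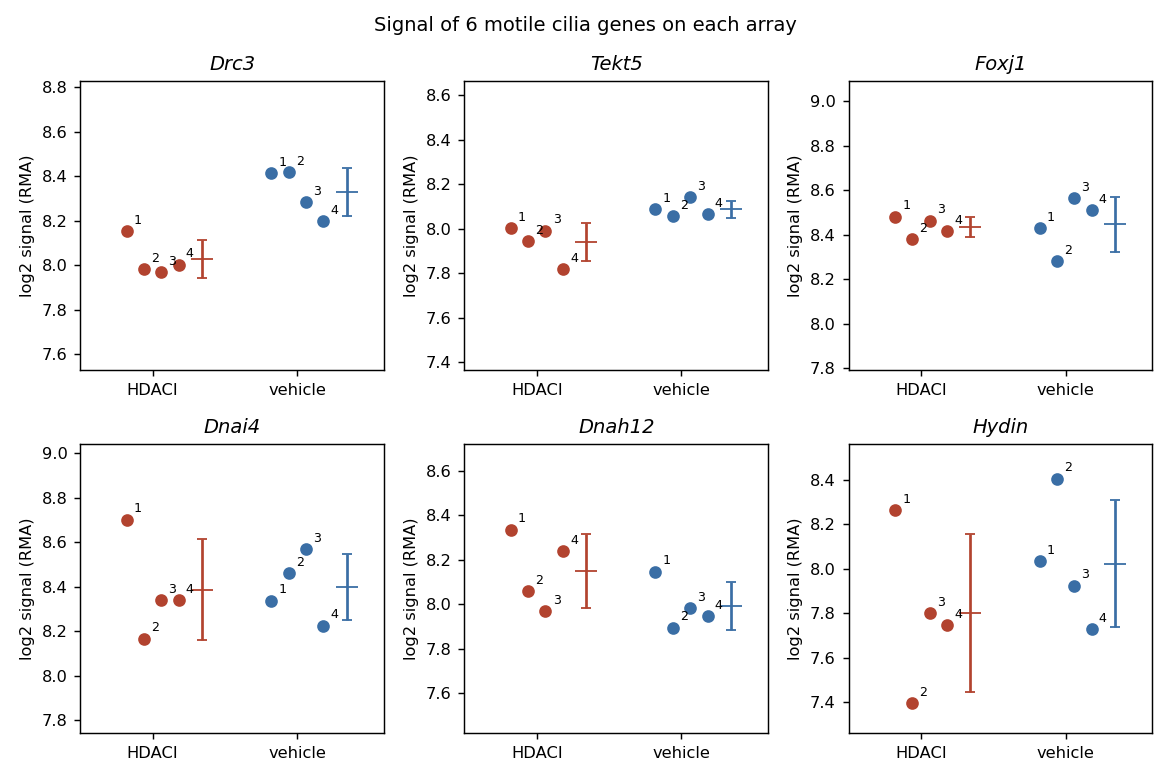
Log2 signal (vertical axis) of 6 motile cilia genes on each array, HDACI left and vehicle right. Points are arrays with their replicate numbers, and the bar beside them is the mean with the SD (n = 4). Each panel spans the same range of log2 units. The groups are apart for Drc3 and Tekt5 and overlap for Foxj1, Dnai4, Dnah12 and Hydin.

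Foxj1, the factor that programmes motile cilia, did not differ between the groups by more than their spread. Its signal was 8.48, 8.38, 8.46 and 8.41 on the HDACI arrays, against 8.43, 8.28, 8.56 and 8.51 on the vehicle arrays. The HDACI values lay inside the range of the vehicle values. The difference was -0.01 (95% confidence interval -0.15 to 0.13), with an unadjusted p of 0.858 from limma. Of 9 other measured genes of this transcription programme, 5 had a lower and 4 a higher mean. At an unadjusted p under 0.01, 1 was called, where 0.607% of all genes were higher. For 1.42% of all genes every HDACI array was above every vehicle array. Rfx2, a regulatory factor X that binds promoters of ciliary genes, was at 8.18, 8.11, 8.10 and 8.15 on the HDACI arrays, against 8.04, 8.004, 7.99 and 7.91 on the vehicle arrays. The groups did not overlap, and Rfx2 was higher by 0.15 (standard error 0.04, unadjusted p = 0.00745, adjusted p = 0.610 from limma).

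The dynein heavy chains, the motors themselves, gave 7 genes: Dnah8 and Dnah11 of the outer arms and Dnah1, Dnah2, Dnah7, Dnah10 and Dnah12 of the inner arms. None reached an unadjusted p of 0.05 with all 8 arrays and no block. Dnah12 had the largest positive difference of all 34 genes, with 8.33, 8.06, 7.97 and 8.24 on the HDACI arrays, against 8.15, 7.89, 7.98 and 7.95 on the vehicle arrays. A pair of HDACI arrays stood above every vehicle array and the other pair among them, and the difference of 0.16 (95% confidence interval -0.04 to 0.35) had an unadjusted p of 0.100 from limma. The unadjusted p from limma was 0.0283 without HDACI replicate 3, 0.0424 without vehicle replicate 1 and 0.0374 with the replicate number as a block. The difference was 0.097 without HDACI replicate 1. Dnah11, which in people is one of the genes mutated in primary ciliary dyskinesia, was at 7.01, 7.07, 7.07 and 6.86 on the HDACI arrays, against 7.41, 7.23, 6.94 and 7.02 on the vehicle arrays. A pair of vehicle arrays was above every HDACI array, and the difference was -0.15 (95% confidence interval -0.38 to 0.07, unadjusted p = 0.160 from limma). It was -0.065 without vehicle replicate 1, and -0.22 without vehicle replicate 3 (unadjusted p = 0.0453 from limma). The remaining 5 differed by -0.12 to 0.02. The probe sets of Dnah2, Dnah7, Dnah8 and Dnah10 were at or below the olfactory receptor level.

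The intermediate chains, which hold the arms to their cargo doublet, were measured by Dnai1 and Dnai2 of the outer arms and by Dnai3, Dnai4 and Dnai7. Their differences ran from -0.08 to 0.04. Dnai4 was at 8.70, 8.17, 8.34 and 8.34 on the HDACI arrays, against 8.34, 8.46, 8.57 and 8.23 on the vehicle arrays. HDACI arrays held both the highest and the lowest value, and the difference was -0.01 (95% confidence interval -0.27 to 0.24). Dynlrb2, a light chain of the roadblock family that ciliary dyneins use, was dim, at 6.34, 5.82, 5.96 and 5.78 on the HDACI arrays, against 6.08, 5.89, 6.10 and 5.96 on the vehicle arrays. HDACI replicate 1 stood above the other 7 arrays, and the group means differed by -0.03. Outside the rule, 13 other light chains and docking genes had a median difference of 0.00, and none was called at an unadjusted p of 0.05. Of 13 assembly factors, which fold dynein arms in the cytoplasm, 6 were lower and 7 higher. Dnaaf4 was the one called at an unadjusted p of 0.05, with a difference of -0.17 (unadjusted p = 0.0467 from limma). It was at 7.32, 7.27, 7.32 and 7.40 with HDACI, against 7.48, 7.28, 7.61 and 7.62 with vehicle.

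The radial spokes, which carry signals from the central pair to the arms, were measured by Rsph1, Rsph3, Rsph6a, Rsph9, Rsph10b and Rsph14. Of these 6 genes 4 were lower and 2 higher, from -0.11 to 0.07. Rsph3, which forms part of the spoke stalk, was at 8.40, 8.31, 8.42 and 8.51 on the HDACI arrays, against 8.40, 8.58, 8.46 and 8.64 on the vehicle arrays. The groups overlapped, and the difference was -0.11 (95% confidence interval -0.25 to 0.04, unadjusted p = 0.126 from limma). Among the 4 central pair genes (Hydin, Spag16, Spag6 and Spag6l) none was called. Spag6l was at 8.38, 7.76, 7.94 and 7.99 on the HDACI arrays, against 8.05, 7.99, 8.28 and 7.91 on the vehicle arrays, a difference of -0.04. Again HDACI arrays held both the highest and the lowest value. Spag6 and Spag6l are listed as synonyms of each other in RefSeq, so which of the near-identical copies each probe set reads is uncertain. Hydin, a giant protein of the central pair whose loss causes hydrocephalus in mice, had the widest spread of the 34 genes and was chosen after its values were seen. It was at 8.26, 7.39, 7.80 and 7.75 on the HDACI arrays, against 8.03, 8.40, 7.92 and 7.73 on the vehicle arrays. The HDACI replicates 1 and 2 held its extremes within the group, and the difference of the means was -0.22 (95% confidence interval -0.64 to 0.20, unadjusted p = 0.263 from limma). That value rested on single arrays: it was -0.085 without HDACI replicate 2, -0.093 without vehicle replicate 2 and -0.37 without HDACI replicate 1 (unadjusted p = 0.0454 from limma). Of 8 further spoke and central pair genes outside the rule, 4 were lower and 4 higher. Lrrc23, a spoke head protein, was the one called, with 8.35, 8.25, 8.20 and 8.38 on the HDACI arrays, against 8.16, 8.10, 8.19 and 8.04 on the vehicle arrays. These did not overlap, the lowest HDACI array lying just above the highest vehicle array. The difference was 0.17 (standard error 0.06, unadjusted p = 0.0121, adjusted p = 0.610 from limma). Higher at an unadjusted p under 0.05 were 2.79% of all genes, and 1.42% did not overlap in that direction.

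In all, 101 other genes of the pathway were measured, 60 lower and 41 higher with HDACI, with a median difference of -0.01. At an unadjusted p under 0.05, 4 of them were lower (Dnaaf4, Efcab2, Ift52 and Mns1) and 2 higher (Rfx2 and Lrrc23), where 4.96% of all genes were lower and 2.79% higher. Both counts are below those shares. At an unadjusted p under 0.01 only Rfx2 was called. Of 16 genes for proteins inside the doublet wall, 9 were lower and 7 higher. Mns1, one of these, was at 6.85, 6.49, 6.57 and 6.58 on the HDACI arrays, against 7.12, 6.57, 7.47 and 6.87 on the vehicle arrays. Its groups overlapped at vehicle replicate 2, and the difference was -0.38 (95% confidence interval -0.76 to -0.00, unadjusted p = 0.0482 from limma). Its mean signal over the 8 arrays was at the olfactory receptor level, so it is not shown to lie above background. Ift52, of the transport trains that build every cilium, differed by -0.10 with no overlap (unadjusted p = 0.0299 from limma). Its signal was 10.01, 10.00, 9.93 and 10.01 with HDACI, against 10.13, 10.09, 10.04 and 10.10 with vehicle. Bbs2, a subunit of the BBSome, did not overlap either, but differed by -0.05 (unadjusted p = 0.199 from limma). For 3.6% of all genes every HDACI array was below every vehicle array. The whole list of 32 transport and BBSome genes, which non-motile cilia use too, had 21 lower and 11 higher means and a median of -0.02.

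Markers of the ependymal cell that the rule did not use were measured by 9 genes, 5 of them above the olfactory receptor level (Tppp3, Dynlt4, Drc12, Rarres2 and Cd24). Of the 9, 6 were lower and 3 higher with HDACI, with a median of -0.08. Tppp3, a tubulin-binding protein of ciliated epithelia that other neural cells also express, was the one called at an unadjusted p of 0.05. It was at 11.64, 11.71, 11.59 and 11.62 on the HDACI arrays, against 11.91, 12.05, 11.73 and 11.76 on the vehicle arrays. The groups did not overlap, and the difference was -0.22 (standard error 0.07, unadjusted p = 0.0114, adjusted p = 0.610 from limma). Lower at an unadjusted p under 0.05 were 4.96% of all genes, and 3.6% did not overlap in that direction. Drc12 (older name Ccdc153), which is also an N-DRC subunit, was at 8.48, 8.11, 7.99 and 8.05 with HDACI, against 8.13, 8.06, 8.60 and 8.17 with vehicle. It differed by -0.08, and the groups overlapped. The mean signal of the 9 markers was 7.64, 7.73, 7.61 and 7.59 on the HDACI arrays, against 7.76, 7.77, 7.71 and 7.62 on the vehicle arrays. The 6 markers that ependymal cells share with astrocytes or progenitors had a mean from 10.5 to 10.9 with HDACI and from 10.6 to 10.8 with vehicle, and none was called.

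The mean of the motile cilia genes spanned more over the arrays of a group than the group means differed, as did that of all genes. The mean signal over the 34 genes was 7.33, 7.14, 7.21 and 7.16 on the HDACI arrays, against 7.29, 7.19, 7.32 and 7.21 on the vehicle arrays. The arrays of a group spanned 0.19 with HDACI and 0.14 with vehicle, and the group means differed by -0.04. A span of single arrays and a difference of means are unlike measures. Over all genes the arrays ran from 8.410 to 8.440 with HDACI and from 8.427 to 8.440 with vehicle, with group means of 8.424 and 8.433. HDACI replicate 1 and vehicle replicate 3 were highest, and HDACI replicates 2 and 4 were lowest. Vehicle replicate 1 was above the mean of the gene over 8 arrays for 24 of the 34, as was HDACI replicate 1. Vehicle replicate 2 was above it for 10 and HDACI replicate 4 for 11. HDACI replicate 1 was the highest of the 8 arrays for 12 of the 34 genes (35.3%, beside 8.50% of all genes) and vehicle replicate 3 for 10 (29.4%, beside 12.02%). Neither was the lowest for any of the 34. HDACI replicate 2 was the highest for 0 and the lowest for 10 (29.4%, beside 19.2%). HDACI replicate 4 was the lowest for 8 (23.5%, beside 9.42%), as was vehicle replicate 2 (23.5%, beside 15.4%). Within the HDACI group 26 of 34 genes were higher on replicate 1 than on replicate 2 (48.0% of all genes were), and within the vehicle group 28 of 34 were higher on replicate 3 than on replicate 2 (48.8% of all genes were). These arrays were singled out after their values were seen.

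**Figure D3:**
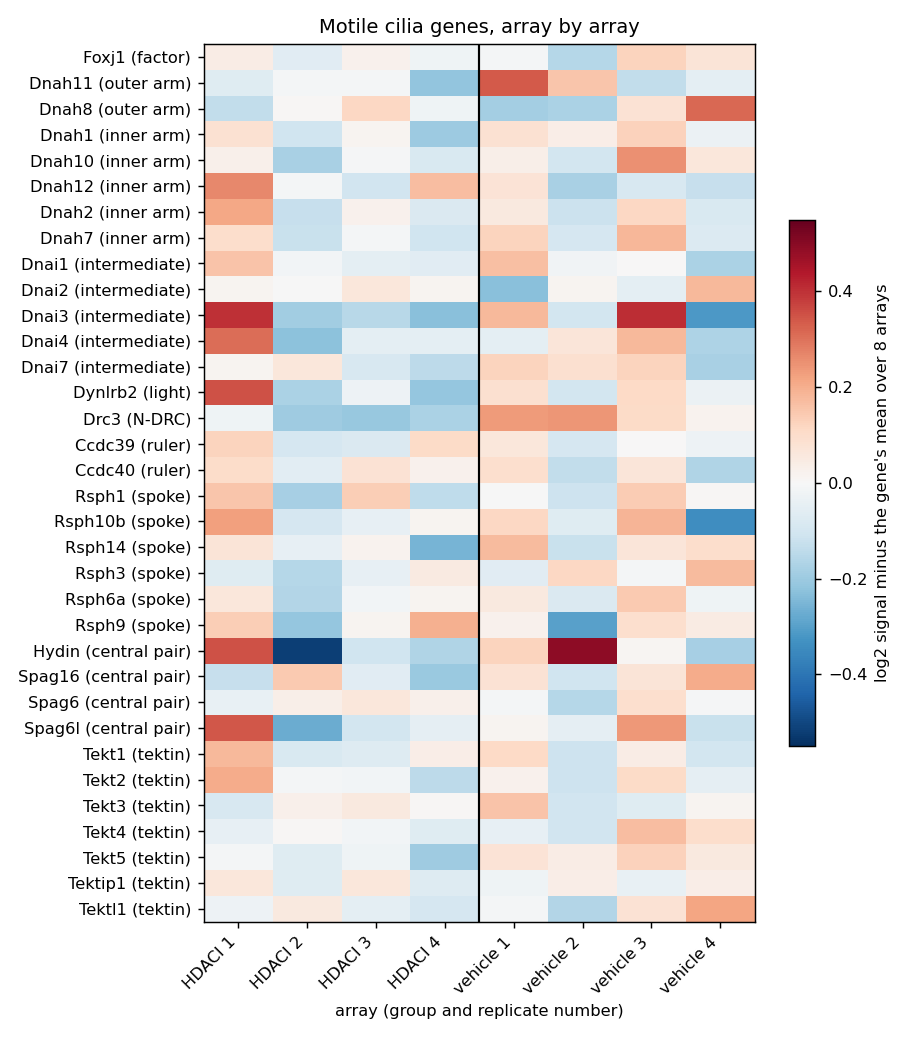
Log2 signal of the 34 motile cilia genes (rows, role in brackets) on the 4 HDACI arrays (left of the line) and the 4 vehicle arrays (right), each minus the mean of the gene over 8 arrays. Red is above and blue below that mean. The columns of HDACI replicate 1 and of vehicle replicates 1 and 3 are mostly red. Those of HDACI replicates 2, 3 and 4 and of vehicle replicate 2 are mostly blue, while Drc3 follows the groups.

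Dnah2, an inner arm motor chain, followed this pattern most closely. It was at 6.75, 6.42, 6.56 and 6.46 on the HDACI arrays, against 6.60, 6.42, 6.65 and 6.46 on the vehicle arrays. HDACI replicate 1 and vehicle replicate 3 were its highest arrays, and its groups differed by 0.02. After the group means were removed, the Pearson correlation of Dnah2 with the mean of the other motile cilia genes over the 8 arrays was 0.998, followed by Dnah7 (0.943) and Dynlrb2 (0.940). It was 0.391 for Drc3, 0.345 for Hydin and -0.413 for Rsph3. The mean signals of Dnah2, Dnah7 and Dynlrb2 were at or below the olfactory receptor level, so they are not shown to lie above background. Next in order were Tekt2 (0.895) and Spag6l (0.893), both above that level. The part of background signal in these correlations was not tested. Over the 561 pairs of motile cilia genes the median correlation was 0.30 and 69.5% were above 0, and the mean was 0.245, against 0.00183 over pairs of all genes. These correlations are descriptions over 8 arrays whose genes share one tissue piece, hybridization and normalization per array.

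HDACI replicate 1 and vehicle replicate 3 were also high over the other genes of the pathway, while the low arrays were in part different. Of the 101 genes outside the rule, 49 (48.5%) were highest on HDACI replicate 1 or vehicle replicate 3, as were 22 of the 34 (64.7%), beside 20.5% of all genes. HDACI replicate 2 was the lowest array for 32 of the 101 (31.7%, beside 19.2% of all genes). Vehicle replicate 4 was the lowest for 33 (32.7%, beside 17.9%), but for only 5 of the 34 (14.7%). HDACI replicate 4, low over the 34, was the lowest for 4 of the 101 (3.96%, beside 9.42%). Markers of some other cell types moved with the pattern or against it. The mean of 12 leptomeningeal fibroblast markers was 8.83, 9.84, 9.12 and 9.08 on the HDACI arrays, against 9.10, 9.33, 8.86 and 8.999 on the vehicle arrays. It was lowest on the arrays on which the motile cilia genes were highest, and highest on HDACI replicate 2. All 12 markers were above the olfactory receptor level. The mean of 8 neuron markers was 11.67, 11.34, 11.55 and 11.56 with HDACI, against 11.50, 11.55, 11.63 and 11.62 with vehicle, with HDACI replicate 2 again the lowest. The mean of 5 endothelial markers was lowest on HDACI replicate 1 (9.08) and highest on HDACI replicate 2 (9.40). Astrocyte and microglia means were lowest on vehicle replicate 3. That of oligodendrocytes was lowest on vehicle replicate 4 and that of motor neurons on HDACI replicate 4. The part of these cell types in the array pattern was not tested. The mean of the 9 ependymal markers did not single out HDACI replicate 1, and the single markers went different ways. That array was the highest for 2 (Ccdc146 and Mlf1) and the lowest for 2 (Meig1 and Mia), all at or below the olfactory receptor level. Vehicle replicate 3 was the highest for 2 (Drc12 and Meig1) and the lowest for 0 of these markers. The 6 that ependymal cells share with astrocytes or progenitors ran opposite to the motile cilia genes, at 10.50, 10.89, 10.70 and 10.71 on the HDACI arrays, against 10.76, 10.83, 10.57 and 10.63 on the vehicle arrays. HDACI replicate 1 was the lowest array for 4 of these 6.

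**Figure D4:**
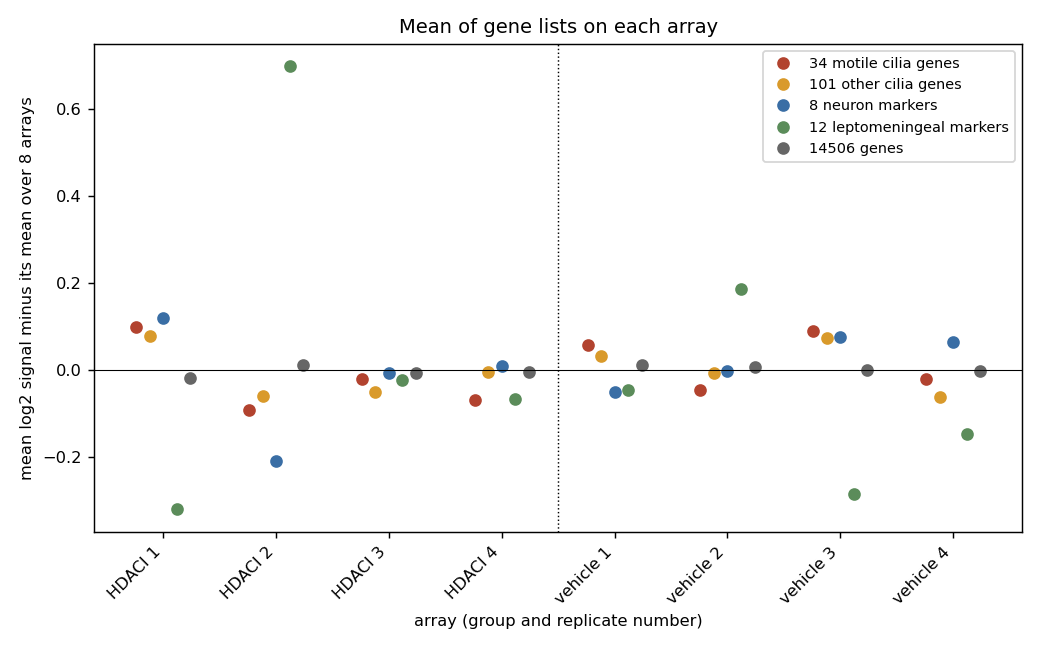
Mean log2 signal of 5 gene lists on each array (horizontal axis, HDACI left of the dotted line), minus the mean of each list over 8 arrays (vertical axis, log2 units). The 34 motile cilia genes and the 101 other cilia genes are both high on HDACI replicate 1 and vehicle replicate 3, where the 12 leptomeningeal markers are low.

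Markers of other cell types were also compared between the groups. The 3 motor neuron markers, of which 2 were above the olfactory receptor level, had lower means with HDACI, and 2 were called at an unadjusted p under 0.05. These were Slc5a7, the choline transporter, with a difference of -0.75 (unadjusted p = 0.0368 from limma) and Isl1, which was at the olfactory receptor level, with -0.23 (unadjusted p = 0.0436 from limma). Slc18a3 had the largest difference, -1.07 (unadjusted p = 0.0747 from limma), and ran from 7.41 to 10.09 within the vehicle arrays. The mean of the list ran from 7.39 to 8.23 on the HDACI arrays, against 7.83 to 9.27 on the vehicle arrays. Vehicle replicate 2 was the highest of the 8 arrays for all 3 motor neuron markers. Of 6 choroid plexus markers, another ciliated epithelium, 2 were above the olfactory receptor level and 2 were called, both higher with HDACI: Kl by 0.20 (unadjusted p = 0.00275 from limma) and Clic6, which was at the olfactory receptor level, by 0.28 (unadjusted p = 0.0364 from limma). Of the 6 choroid plexus markers, 3 had lower and 3 higher means with HDACI, with a median difference of -0.005. Ttr, Folr1 and Kcnj13 were also at or below the olfactory receptor level. Choroid plexus is thus not shown to be part of these dorsal lumbar cord samples, and Kl and Clic6 are not shown to report it. The list mean ran from 6.81 to 7.27 with HDACI, against 6.76 to 7.12 with vehicle. Of the 8 neuron markers 7 had lower means with HDACI, and Nefl, a neurofilament, was called (-0.12, unadjusted p = 0.0466 from limma). Of the 12 leptomeningeal markers 9 had higher and 3 lower means, with a median of 0.13, and none was called at an unadjusted p of 0.05. Means were higher for 5 of 6 astrocyte, 5 of 6 microglia, 4 of 5 endothelial and 3 of 4 oligodendrocyte markers. None of these was called at that threshold. Among all genes 57.9% had a lower mean with HDACI. At an unadjusted p under 0.05, 4.96% of all genes were lower and 2.79% higher. The part of any of these cell types in the values of the motile cilia genes was not tested.

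The stretches before the starts of the motile cilia genes were searched for short words of the factors that switch on motile cilia. RefSeq on GRCr8 gave a promoter entry for 29 of the 34 genes; Dnai4, Foxj1, Rsph1, Spag16 and Tekt5 were not matched. The 250 bases before each start were read, on both strands. GTTNCCA, a half-site of the kind Rfx factors bind, was found in 8 of the 29 (27.6%), beside 15.8% of 27457 genes with an entry. They were Ccdc39, Dnah2, Dnah8, Dnah11, Dnah12, Hydin, Tekt1 and Tektl1. Its stricter form GTTGCCA (every GTTGCCA is also a GTTNCCA) was in 4 (13.8%), beside 4.02% of all: Dnah2, Hydin, Tekt1 and Tektl1. The forkhead word TGTTTAC was in 1 (Tekt3), beside 3.54% of all. A match is a description of the letters and not a binding site. The stretches of Dnah2, Tekt1 and Hydin are shown because they hold the stricter word near the start. The part of these words in the array pattern was not tested. Among the 8 genes with GTTNCCA the correlation with the mean of the other motile cilia genes ran from -0.282 (Dnah8) to 0.998 (Dnah2). Of the others with GTTGCCA, it was 0.832 for Tekt1, 0.345 for Hydin and 0.036 for Tektl1. They run 5′ to 3′ along the gene and end at the base before the start, and capitals mark the match to GTTNCCA, on the opposite strand in Hydin. The match begins 45 bases before the start in Dnah2, 39 in Tekt1 and 7 in Hydin.
Dnah2 (chr10:54766027-54766276, minus strand): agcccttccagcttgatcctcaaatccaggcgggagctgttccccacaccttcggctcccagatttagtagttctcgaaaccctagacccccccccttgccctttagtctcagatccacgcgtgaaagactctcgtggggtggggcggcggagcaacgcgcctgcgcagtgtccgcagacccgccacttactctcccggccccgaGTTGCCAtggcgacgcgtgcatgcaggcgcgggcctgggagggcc
Tekt1 (chr10:57479122-57479371, minus strand): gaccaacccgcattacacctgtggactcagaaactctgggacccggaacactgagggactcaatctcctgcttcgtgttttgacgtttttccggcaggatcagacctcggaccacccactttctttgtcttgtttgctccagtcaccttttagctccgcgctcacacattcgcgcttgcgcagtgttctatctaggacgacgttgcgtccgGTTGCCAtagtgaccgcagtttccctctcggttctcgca
Hydin (chr19:55146216-55146465, plus strand): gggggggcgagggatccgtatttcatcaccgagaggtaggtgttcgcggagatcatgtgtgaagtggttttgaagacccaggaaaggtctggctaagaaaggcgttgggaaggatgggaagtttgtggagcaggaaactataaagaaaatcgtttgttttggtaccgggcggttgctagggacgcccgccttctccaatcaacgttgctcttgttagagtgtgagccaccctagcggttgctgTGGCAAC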

How the data were processed

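RNA of dorsal lumbar cord was measured on 4 HDACI and 4 vehicle arrays. The authors deposited log2 values: per the methods of the study, scans were preprocessed with oligo and normalized by RMA (tool versions not given in the sources used here). Groups came from the sample titles, since the treatment text names MS-275 for all 8 samples. The platform annotation gave a single symbol to 15310 of 29214 probe sets and several to 323, and 13581 are absent from it. Single-symbol probe sets were averaged per gene, with no filter. The comparison used limma 3.58.1 (lmFit, eBayes; R 4.3.3), two-sided, with 6 residual degrees of freedom, and with an exact permutation test over 70 assignments for single genes. The number of arrays limits the precision.

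The genes and gene lists were chosen with earlier results of these data known. Named are motile cilia genes whose groups do not overlap or that had an unadjusted p under 0.05, Foxj1, the gene with the highest mean signal in each role, and up to 4 genes of each pathway list with an unadjusted p under 0.05. Hydin and Bbs2 were added after their values were seen. Dnah2 is given because its correlation with the other motile cilia genes was the highest, which was also seen in these data. Drc12, an ependymal marker and N-DRC subunit, is likewise given outside that rule. Scripts were tested on simulated data. Alternatives were other variance settings, signal filters, further normalization, other ways to reach 1 value per gene, array weights, the replicate number as a block, and each array left out. HDACI replicate 1 and vehicle replicate 3 were left out together as an alternative chosen after seeing the data. Fold changes in the study's supplement were not used.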

Additional observations from a re-analysis of the deposited data

Results flagged for a closer look

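A sample far from the rest of its group was looked for in 68 groups of 4 arrays (34 genes in each of 2 treatments) with Dixon's ratio of the gap to the range, and 2 were found; chance gives about 1 in 20. Dnai3, an inner arm intermediate chain, was at 7.50 on HDACI replicate 1, far above the other HDACI arrays (ratio 0.878). Dnai7 was at 8.10 on vehicle replicate 4, far below the other vehicle arrays (ratio 0.883).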

How the results depend on the processing

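Values were recomputed under 20 alternatives. Drc3 was called at an unadjusted p under 0.01 in each fit that gave it a value, as the only motile cilia gene, and its adjusted p stayed above 0.05. Counts over all genes moved. At an unadjusted p under 0.01 were 212 of 14506 genes, against 379 of 29214 with probe sets as the unit, which are unlike totals. The count of genes ran from 113 (without HDACI replicate 4) to 259 (without HDACI replicate 1) when an array was left out. Past adjustment were 0 genes, against 1 with probe sets as the unit and 0 to 2 when an array was left out (2 without HDACI replicate 3 or vehicle replicate 2). The number of motile cilia genes with a lower mean was 27 without HDACI replicate 1, and 17 without HDACI replicate 2 or vehicle replicate 3, against 22. The median difference of the 34 genes ran from -0.066 (without HDACI replicate 1) to 0.0020 (without HDACI replicate 2), so its sign turned. At an unadjusted p under 0.05, Dnah12 was higher without HDACI replicate 3 or vehicle replicate 1, and lower were Dnah1 and Hydin (without HDACI replicate 1), Spag16 (without HDACI replicate 2), Dnah10 (without vehicle replicate 2), Dnah11 (without vehicle replicate 3) and Dnai7 (without vehicle replicate 4). Genes near 0 turned when an array was left out: Foxj1 ran from -0.066 to 0.028, Dnai4 from -0.116 to 0.063, Dynlrb2 from -0.154 to 0.033 and Spag6l from -0.162 to 0.043. Without both HDACI replicate 1 and vehicle replicate 3, Foxj1 was at 0.012. The cause was not tested. A filter at the 25th percentile of signal left 22 of the 34 genes, and one at the median left none, so it gave no value.

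Deviations of same-numbered replicates had correlations of -0.27, 0.36, 0.04 and 0.06 for replicates 1, 2, 3 and 4. Only the arrays of replicate 2 deviated together, so the replicate number was not taken as a pairing. With it as a block, 66 genes were lower and 121 higher at an unadjusted p under 0.01, Drc3 differed by -0.30 (unadjusted p = 0.00104 from limma), and Dnah12 by 0.16 (unadjusted p = 0.0374 from limma). Differences of dim genes are compressed, and 4 arrays against 4 leave small changes unresolved.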
